A study of Mus musculus with 16 samples.

Results

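The genes described here are 49 genes of DNA replication and mitosis, followed in mouse bone-marrow-derived macrophages that did or did not carry the transcription factor NFAT5 and that did or did not receive LPS. They were picked by name, with earlier results of these data known. Each gene was read from the probe set (the group of array probes summarised as 1 value) that the platform annotation gives to that gene alone, and from the brightest over 16 arrays where there were several. Of the 49 genes, 47 were measured, among 19937 genes in all. Ccnb1 had no such probe set, and the probe set for Cdkn1a is annotated to another gene as well and was not used. By role, the measured genes comprise 9 that license replication origins, 10 that assemble the fork and copy DNA, 3 that supply nucleotides, 6 that steer G1 and entry into S phase, 8 mitotic kinases, cyclins and exit factors, 9 genes of the spindle, kinetochore and chromosomes, and 2 polo-like kinases known mainly from stress and early growth responses.

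A cell that is about to divide first loads the MCM helicase onto its replication origins, then copies its DNA with polymerases, clamps and ligases, and last condenses and separates the chromosomes under the control of the cyclin-dependent, Aurora and polo-like kinases. Most genes of the first steps are switched on by E2F factors at the border of G1 and S phase, and most genes of mitosis are switched on later, through promoters that bind the DREAM and MuvB complexes. Macrophages grown from marrow precursors divide in response to the growth factor CSF1, and LPS, the outer membrane lipid of Gram-negative bacteria, is known to stop that division.

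There were 4 groups of 4 arrays, 1 array per sample: wild-type cells and Nfat5 knockout (KO) cells, each unstimulated or with LPS, all on the 129sv background. For the dose and duration of LPS, the design of the knockout allele and the sex and age of the mice, nothing is given in the sources used here. The labels do not tie the 4 arrays of a group to different mice or cultures. The p-values therefore measure only how these samples scatter, and that scatter may be technical. Values are log2 levels from robust multi-array averaging (RMA) in which a difference of 1 is a change by a factor of 2. Precision is limited by the number of arrays. A gene is said to have risen, fallen or changed where its adjusted p (limma, Benjamini-Hochberg over all 19937 genes) was under 0.05.

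Across the series, the Nfat5 probe set stood at 9.39 ± 0.21 in wild-type and 9.04 ± 0.12 in KO cells without LPS (SD, n = 4 each, exact two-sided permutation p = 0.0571), and at 10.07 ± 0.34 and 9.09 ± 0.29 with LPS (p = 0.0286, the smallest that 4 against 4 arrays can give). No label says whether its probes lie in the deleted stretch. Xist lay above the Y-linked Kdm5d in all 8 wild-type arrays and in the 2 KO arrays numbered 4, and below it in the other 6 KO arrays, so sex and genotype were largely confounded. On the principal component with 7.55% of the variance, the arrays numbered 4 scored -6.42 to -31.4, and 1 other array, number 1 of the unstimulated wild-type group, also scored below 0. Counts are therefore given with and without the arrays numbered 4. Without them, every KO array left had Kdm5d above Xist and every wild-type array the reverse. Sex and genotype are then wholly confounded. The mean level of 7 macrophage markers was 11.89 to 12.49 in every array. Over the same arrays, the mean lay at 5.13 to 5.55 for 6 lymphocyte markers, at 5.48 to 5.87 for 7 neutrophil markers and at 6.10 to 6.57 for 9 markers of myeloid progenitors, the dividing precursors of these cells, against a level of 6.65 that 40% of all genes do not reach. Other lists reached that level, at 6.82 to 7.73 for 5 erythroid and megakaryocyte, 6.22 to 6.92 for 5 dendritic cell and 6.29 to 6.68 for 6 stromal markers. In bulk samples such as these, fewer dividing cells and less RNA per cell cannot be told apart.

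The promoters of 4 of the genes are shown because the genes move in opposite directions with LPS although their promoters hold the letters typical of replication and mitosis genes. Each stretch is the 200 bases before a transcription start, 5′ to 3′ along the gene, from RefSeq's sequence of GRCm38.p6; all 4 genes lie on the minus strand. Capitals mark E2F letters (TTTCCCGC or TTTGGCGC), the cell cycle homology region, CHR (TTTGAA), which DREAM and MuvB bind, and the CCAAT box, each on either strand. None of these strings contains another.
Mcm6, chr1:128359706-128359905: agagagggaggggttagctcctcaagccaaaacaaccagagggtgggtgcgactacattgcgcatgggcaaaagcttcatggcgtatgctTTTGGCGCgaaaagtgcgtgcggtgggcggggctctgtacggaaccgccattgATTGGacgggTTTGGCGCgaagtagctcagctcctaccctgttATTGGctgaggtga
Mcm7, chr5:138171884-138172083: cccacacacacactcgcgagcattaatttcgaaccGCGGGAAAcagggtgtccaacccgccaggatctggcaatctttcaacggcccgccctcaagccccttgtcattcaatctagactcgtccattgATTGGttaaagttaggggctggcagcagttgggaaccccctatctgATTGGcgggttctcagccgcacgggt
Cdk1, chr10:69352913-69353112: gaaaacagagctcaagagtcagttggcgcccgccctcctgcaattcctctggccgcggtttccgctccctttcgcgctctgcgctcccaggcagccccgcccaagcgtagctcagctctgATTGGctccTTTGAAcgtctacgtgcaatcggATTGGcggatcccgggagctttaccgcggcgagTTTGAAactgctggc
Mki67, chr7:135716380-135716579: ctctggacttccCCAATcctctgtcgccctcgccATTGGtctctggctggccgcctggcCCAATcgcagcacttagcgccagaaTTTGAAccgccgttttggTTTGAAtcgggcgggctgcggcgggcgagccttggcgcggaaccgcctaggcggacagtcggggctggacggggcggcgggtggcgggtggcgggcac
Mcm6 held E2F letters that began 110 and 47 bases before the start, and Mcm7 held them 165 bases before 1 of its 2 listed starts. Cdk1 held CHR letters 71 and 15 bases before the start, and Mki67 held them 116 and 98 bases before. Promoter windows from 250 bases before to 50 after the start were listed for 38 of the 47 genes. E2F letters were in a window of 9 of the 38 (23.7%, against 1.80% of 27025 genes with a window), CHR letters in 14 (36.8%, against 20.2%) and CCAAT in 27 (71.1%, against 41.1%). By direction of the LPS change in wild-type cells, E2F letters were present in 4 of 16 genes that fell, 0 of 4 that rose and 5 of 18 that passed in neither direction. For CHR letters the counts were 7 of 16, 1 of 4 and 6 of 18, the 1 that rose being Mki67. These matches are a description of letters in a window.

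A large share of these genes fell with LPS in both genotypes. In wild-type cells 20 of the 47 fell, beside 16.8% of all genes, and 6 rose, beside 14.0%. In KO cells 21 fell, beside 12.7% of all genes, and 5 rose, beside 12%. The median log2 change was -0.21 in wild-type cells, where the median of all genes was 0.062, and -0.33 in KO cells, where it was 0.0098. With LPS every value of 19 genes lay below every unstimulated value in wild-type cells (16.2% of all genes did so) and every value of 5 lay above (16.2%); in KO cells the counts were 14 (12.4%) and 5 (12.4%). Without the arrays numbered 4, 16 genes fell and 6 rose in wild-type cells, and 19 fell and 5 rose in KO cells.

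**Figure D1:**
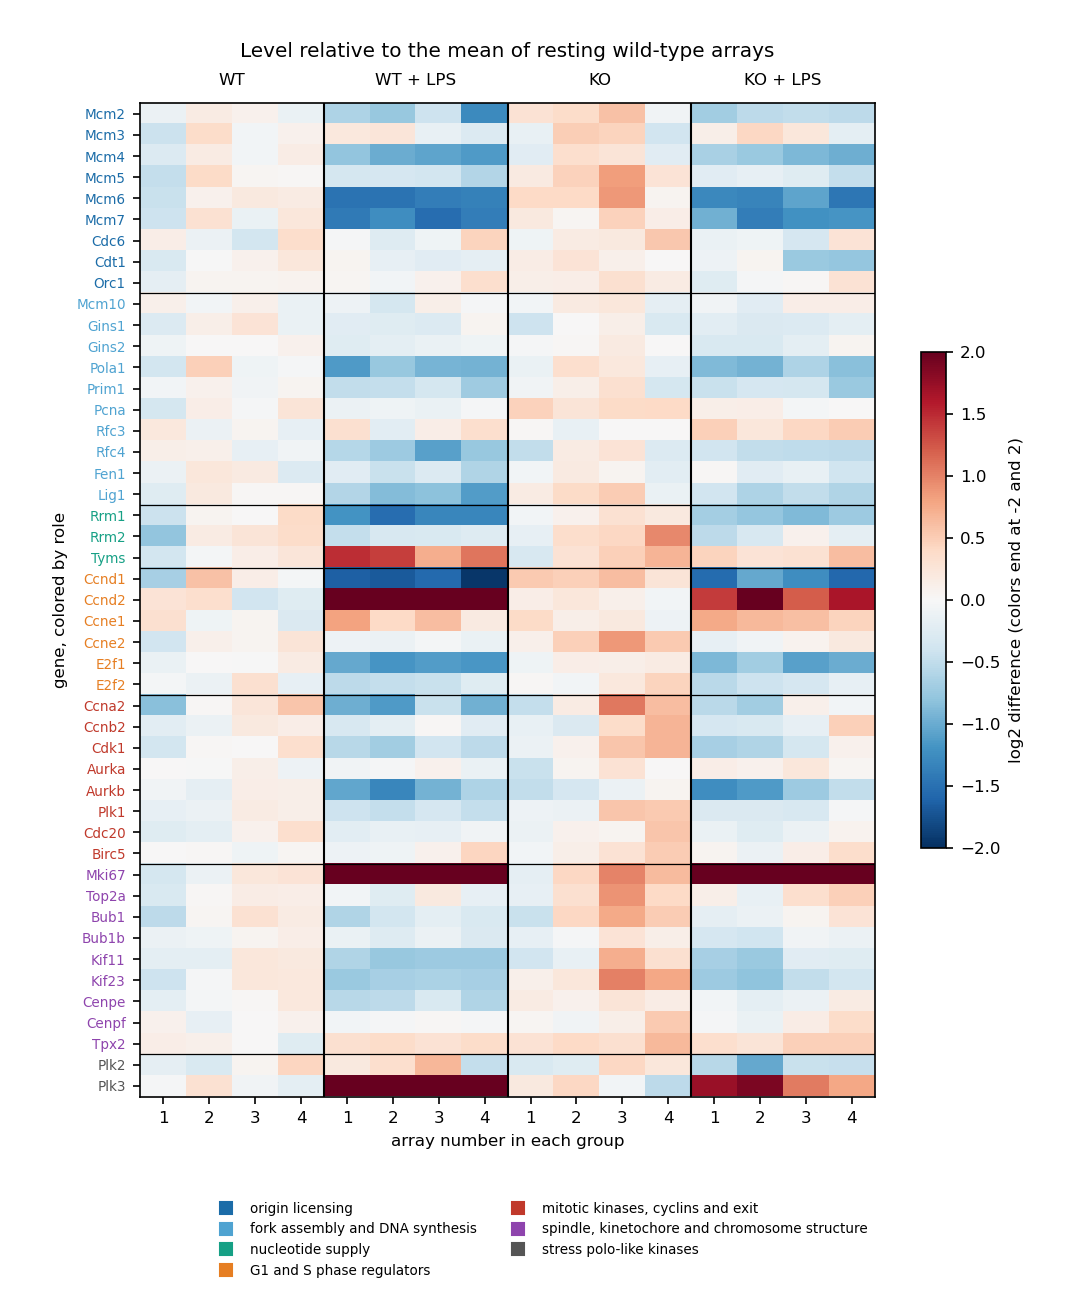
Log2 level of each of the 47 measured genes in each of the 16 arrays, as the difference from that gene's mean over the 4 unstimulated wild-type arrays. Columns are arrays by group and number, names are colored by role, and colors end at -2 and 2; Mcm6, Mcm7, Ccnd1 and E2f1 are low in all 8 LPS arrays, while Mki67, Ccnd2 and Plk3 are high in them.

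Of the 9 genes of origin licensing, 4 fell in wild-type and 6 in KO cells, and the largest falls were those of helicase subunits. The MCM2-7 complex is the ring-shaped helicase that unwinds the origin, and its 6 subunits form it in equal parts. Mcm6 read 7.27, 7.80, 7.91 and 7.89 in unstimulated wild-type arrays 1 to 4 and 6.25, 6.25, 6.34 and 6.37 with LPS. The KO arrays read 8.12, 8.12, 8.58 and 7.77 without and 6.43, 6.4, 6.66 and 6.28 with LPS. All 8 LPS values lay below all 8 unstimulated values. The fall was -1.42 ± 0.15 (SE, adjusted p = 7.23e-07) in wild-type and -1.70 ± 0.15 (9.19e-08) in KO cells, a 2.67-fold and a 3.26-fold decrease.

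Mcm7, a subunit that also serves as a marker of dividing cells, read 7.94, 8.66, 8.23 and 8.59 in unstimulated wild-type arrays and 6.95, 7.12, 6.83 and 6.98 with LPS. The KO values went from 8.55, 8.4, 8.82 and 8.50 to 7.40, 6.97, 7.15 and 7.18, and the groups did not overlap in either genotype. The fall in KO cells was -1.39 ± 0.14 (adjusted p = 4.17e-07). Mcm4 fell by 0.99 in wild-type and by 0.85 in KO cells on the log2 scale, and Mcm2 by 0.77 and 0.85. Mcm5 fell by 0.71 in KO cells (adjusted p = 0.00196), and its change of -0.41 in wild-type cells did not pass (0.0589).

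Mcm3 was the subunit with no change past the test. It read 7.47, 8.27, 7.85 and 7.99 in unstimulated wild-type arrays, 8.11, 8.14, 7.75 and 7.62 with LPS, and 7.75, 8.39, 8.34 and 7.52 in unstimulated KO arrays against 8.01, 8.31, 8.12 and 7.70 with LPS. The groups overlapped throughout, and the changes were 0.01 ± 0.20 and 0.04 ± 0.20. Of the factors that load the helicase, Cdt1 changed by -0.13 in wild-type cells and fell by 0.52 in KO cells (adjusted p = 0.0242), where arrays 3 and 4 with LPS (8.15 and 8.13) lay apart from arrays 1 and 2 (8.80 and 8.96). Its call was lost without KO LPS array 3 (0.103), KO LPS array 4 (0.0951) or KO unstimulated array 2 (0.0712). Cdc6, which works with Cdt1, and Orc1, the largest subunit of the origin recognition complex, passed in neither genotype, with changes of -0.27 to 0.10.

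Of the genes that assemble the fork and copy DNA, 5 of 10 fell in wild-type cells, while 4 fell and 1 rose in KO cells. Pola1, the catalytic subunit of the polymerase that starts each new strand, read 6.61, 7.46, 6.90 and 6.96 in unstimulated wild-type arrays and 5.84, 6.22, 6.05 and 6.03 with LPS. Among KO arrays it went from 6.85, 7.31, 7.19 and 6.82 to 6.10, 6.04, 6.36 and 6.15. No LPS value reached an unstimulated one, and the falls were -0.95 ± 0.15 (adjusted p = 8e-05) and -0.88 ± 0.15 (0.00022). Its partner Prim1, which makes the RNA primer, fell by 0.51 and 0.47. Lig1, the ligase that seals the lagging strand, fell by 0.85 and 0.75.

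The subunits of the clamp loader went different ways. Rfc4, a clamp loader subunit, fell by 0.78 in wild-type cells (adjusted p = 0.000326), while the change of -0.40 in KO cells narrowly missed (0.0527). Another loader subunit, Rfc3, read 7.79, 7.62, 7.77 and 7.78 in unstimulated KO arrays and 8.24, 7.99, 8.18 and 8.28 with LPS, and rose by 0.44 ± 0.12 (adjusted p = 0.00969). In wild-type cells its groups overlapped and the change was 0.15 (0.396). Pcna, the clamp itself, fell by 0.33 in KO cells (0.0305), with no overlap between the groups, and changed by -0.09 in wild-type cells. The probe set of Pcna that was not used had a mean of 11.84 in unstimulated and 11.45 in LPS-treated KO cells, beside 11.93 and 11.60 for the one used. The KO call was lost without KO unstimulated array 1 (0.0761), 3 (0.0633) or 4 (0.0618), or KO LPS array 3 (0.0890) or 4 (0.0679). Fen1, the nuclease that trims primers, fell by 0.39 in wild-type cells (0.0256), a call lost without unstimulated array 2 (0.0926) or 3 (0.0851) or LPS array 2 (0.0611) or 4 (0.0915). Mcm10, Gins1 and Gins2, which help to start the helicase, passed in neither genotype, with changes of -0.24 to -0.05.

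Nucleotide supply split sharply. Rrm1, the large subunit of ribonucleotide reductase, read 8.41, 8.89, 8.84 and 9.22 in unstimulated wild-type arrays and 7.65, 7.32, 7.54 and 7.54 with LPS. KO arrays went from 8.79, 8.92, 9.14 and 9.03 to 8.16, 8.06, 7.96 and 8.12. It fell by 1.32 (SE 0.13, adjusted p = 2.6e-07) in wild-type and by 0.90 (SE 0.13, 3.77e-05) in KO cells, with no overlap in either. Rrm2, the subunit that limits the enzyme in S phase, changed by -0.34 and -0.62 and did not pass (0.304 and 0.0565). Its levels varied among unstimulated arrays, from 5.44 to 6.60 in wild-type and from 6.06 to 7.19 in KO cells.

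Tyms, which makes thymidylate, went up in wild-type cells. It read 6.78, 7.10, 7.28 and 7.38 without LPS and 8.61, 8.53, 7.87 and 8.21 with LPS, a rise of 1.17 ± 0.19 (adjusted p = 0.0001) with every LPS array above every unstimulated array. KO arrays read 6.82, 7.43, 7.62 and 7.82 without and 7.58, 7.42, 7.44 and 7.76 with LPS. Those groups overlapped, and the change was 0.13 ± 0.19 (0.753).

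**Figure D2:**
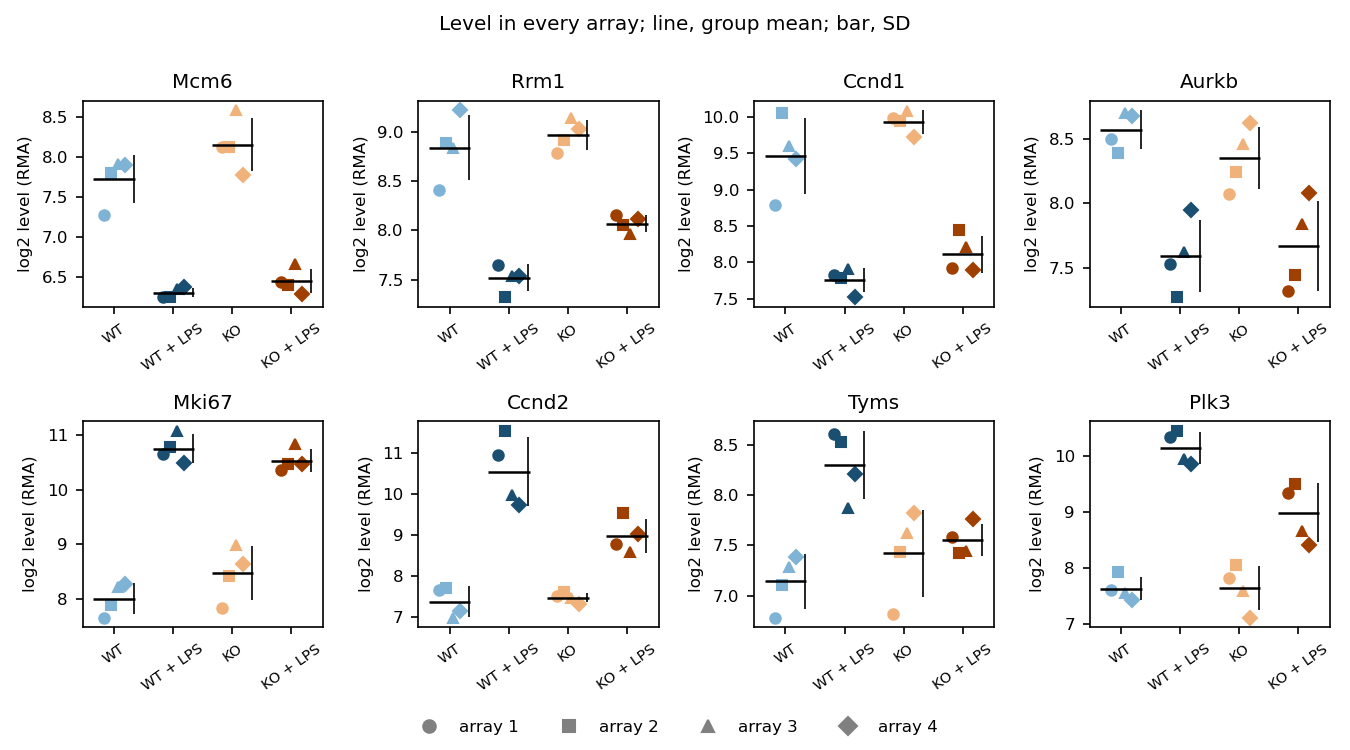
Log2 level of 8 genes in every array, with 1 panel per gene, each on its own axis that does not start at 0. Symbols mark the array number, lines the mean of the 4 arrays of a group and bars the SD; Mcm6, Rrm1 and Ccnd1 with LPS lie below all unstimulated arrays in both genotypes, Mki67, Ccnd2 and Plk3 with LPS lie above them, and Tyms with LPS lies above them in wild-type cells.

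Among the regulators of G1 and S phase, the D-type cyclins, which bring growth factor signals to CDK4 and CDK6, moved in opposite directions. Ccnd1 read 8.79, 10.05, 9.60 and 9.42 in unstimulated wild-type arrays and 7.83, 7.78, 7.91 and 7.52 with LPS, and went from 9.99, 9.94, 10.08 and 9.72 to 7.92, 8.44, 8.21 and 7.89 in KO cells. The changes were -1.70 ± 0.19 (adjusted p = 1.29e-06) and -1.82 ± 0.19 (7.62e-07). Ccnd2 read 7.66, 7.72, 6.99 and 7.14 without and 10.96, 11.55, 9.97 and 9.74 with LPS in wild-type cells, a 9.04-fold rise (3.18 ± 0.30 on the log2 scale, 1.39e-07). In KO cells it went from 7.52, 7.61, 7.48 and 7.33 to 8.78, 9.53, 8.59 and 9.02, a 2.82-fold rise (1.5 ± 0.30, 0.000935). The LPS arrays of both cyclins lay wholly on 1 side of the unstimulated arrays in each genotype.

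E2f1, an activator of the replication genes, read 9.02, 9.15, 9.14 and 9.31 in unstimulated wild-type arrays and 8.12, 7.97, 8.03 and 7.99 with LPS. It fell by 1.12 ± 0.10 (adjusted p = 3.27e-08) there and by 1.0 ± 0.10 (2.14e-07) in KO cells, where the values went from 9.06, 9.28, 9.26 and 9.31 to 8.25, 8.46, 8.07 and 8.15. In both genotypes the LPS arrays lay wholly below the unstimulated ones. E2f2, a related activator, fell by 0.42 and 0.52, and its wild-type call was lost without unstimulated array 3 (0.0651). The E-type cyclins drive CDK2 at the start of S phase. Ccne1 rose by 0.50 in wild-type cells (0.0118) and by 0.47 in KO cells (0.0203). Its call was lost without wild-type LPS array 1 (0.0523) or unstimulated array 4 (0.0518) in wild-type cells, and without KO LPS array 1 (0.0648) or KO unstimulated array 4 (0.0746) in KO cells. Ccne2 changed by -0.10 in wild-type cells and fell by 0.49 in KO cells (0.0183), a call lost without KO LPS array 1 (0.0618) or KO unstimulated array 3 (0.0809).

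Mitotic kinases, cyclins and exit factors fell or did not pass. Of the 8 measured, 4 fell in wild-type and 3 in KO cells. Aurkb, the kinase of the chromosomal passenger complex that corrects chromosome attachment, read 8.50, 8.39, 8.70 and 8.68 in unstimulated wild-type arrays and 7.53, 7.27, 7.62 and 7.95 with LPS. The KO arrays went from 8.07, 8.24, 8.46 and 8.62 to 7.32, 7.44, 7.84 and 8.08. The wild-type groups did not overlap, whereas KO LPS array 4 (8.08) just exceeded KO unstimulated array 1 (8.07). The falls were -0.97 ± 0.17 (adjusted p = 0.000155) and -0.68 ± 0.17 (0.00518).

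Cdk1, the main mitotic kinase, fell by 0.54 (adjusted p = 0.033) in wild-type and 0.69 (0.00913) in KO cells. The wild-type call was lost without LPS array 1 (0.0637), 2 (0.0865) or 4 (0.0591), or unstimulated array 2 (0.0639), 3 (0.0634) or 4 (0.123). Plk1, the polo-like kinase of mitotic entry, fell by 0.42 (0.0288) and 0.45 (0.0244). Its wild-type call was lost without LPS array 1 (0.0514), 2 (0.0661) or 4 (0.0645), or unstimulated array 3 (0.0889) or 4 (0.0797), and its KO call without LPS array 1 (0.0592), 2 (0.0613) or 3 (0.068), or unstimulated array 3 (0.104) or 4 (0.0956). Ccna2, the cyclin of S and G2 phase, had the widest spread of the set without LPS, reading 6.39, 7.25, 7.46 and 7.77 in wild-type arrays and 6.74, 7.38, 8.28 and 7.83 in KO arrays. It fell by 0.87 in wild-type cells (0.0347), a call lost without LPS array 1 (0.0745), 2 (0.090) or 4 (0.0734) or unstimulated array 2 (0.0657), 3 (0.0897) or 4 (0.132), and its change of -0.64 in KO cells did not pass (0.155). Ccnb2, a partner of Cdk1, the kinase Aurka, the exit factor Cdc20 and Birc5, another passenger protein, passed in neither genotype, with changes of -0.25 to 0.15.

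The genes of the spindle, kinetochore and chromosomes included the largest rise of the set in KO cells. Mki67, which coats mitotic chromosomes and is the usual stain for dividing cells, read 7.65, 7.88, 8.22 and 8.27 in unstimulated wild-type arrays and 10.66, 10.79, 11.09 and 10.49 with LPS. KO arrays went from 7.82, 8.42, 8.99 and 8.64 to 10.36, 10.47, 10.84 and 10.47. Every LPS array lay above every unstimulated array, and the KO rise was 2.07 ± 0.20 (adjusted p = 2.67e-07), a 4.19-fold change.

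The spindle motors went the other way. Kif23, a motor needed for cytokinesis, read 6.58, 6.96, 7.22 and 7.2 in unstimulated wild-type arrays and 6.24, 6.32, 6.35 and 6.33 with LPS, and went from 7.09, 7.22, 7.99 and 7.76 to 6.26, 6.18, 6.49 and 6.63 in KO cells. It fell by 0.68 (adjusted p = 0.00569) and 1.12 (7.17e-05), with no overlap in either genotype. Kif11, the motor that pushes spindle poles apart, fell by 0.70 (0.00775) and 0.60 (0.027), and the KO call was lost without LPS array 1 (0.0818) or 2 (0.0931) or unstimulated array 3 (0.115) or 4 (0.079). Cenpe, a kinetochore motor, fell by 0.50 in wild-type cells (0.000683), and its change of -0.21 in KO cells did not pass (0.148). Tpx2, which activates Aurka on the spindle, rose by 0.33 in wild-type cells (0.0155), a call lost without unstimulated array 4 (0.0632), and changed by -0.02 in KO cells. Top2a, which untangles sister DNA, the checkpoint kinases Bub1 and Bub1b and the kinetochore protein Cenpf passed in neither genotype, with changes of -0.37 to -0.02.

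The polo-like kinases Plk2 and Plk3, known as early response genes, differed from Plk1. Plk3 read 7.6, 7.93, 7.56 and 7.43 in unstimulated wild-type arrays and 10.34, 10.46, 9.96 and 9.86 with LPS, a 5.76-fold rise (2.53 ± 0.23 on the log2 scale, adjusted p = 7.07e-08). In KO cells it went from 7.82, 8.05, 7.58 and 7.11 to 9.35, 9.51, 8.67 and 8.41, a 2.54-fold rise (1.35 ± 0.23, 0.000167). Plk2 changed by 0.18 in wild-type cells and fell by 0.65 in KO cells (0.0401), where unstimulated arrays read 8.54, 8.59, 9.26 and 9.07 and LPS arrays 8.28, 7.82, 8.39 and 8.38. That call was lost without KO LPS array 1 (0.064) or 2 (0.141), KO unstimulated array 3 (0.143) or 4 (0.105) or wild-type unstimulated array 3 (0.0502).

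**Figure D3:**
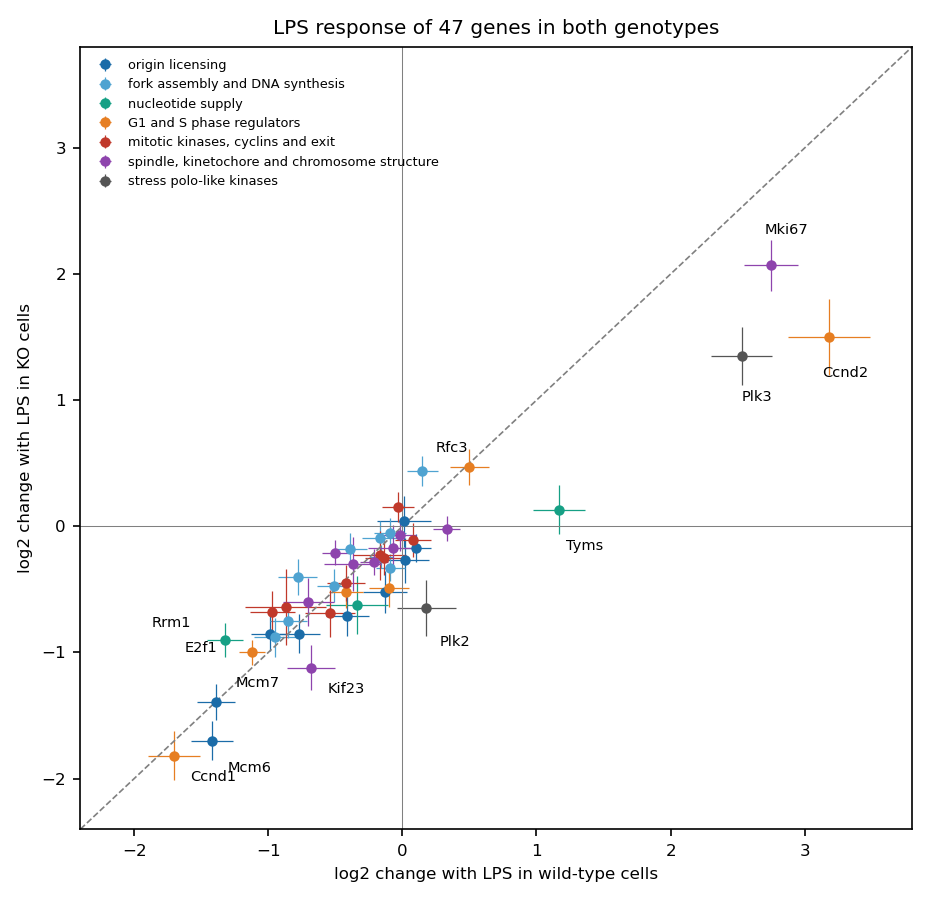
Log2 change with LPS in wild-type cells (x axis) and in KO cells (y axis) for the 47 genes, colored by role, with bars for the SE and a dashed line of equal change. The genes farthest from the line are Ccnd2, Plk3, Tyms, Plk2 and Mki67, which lie below it by 1.68, 1.18, 1.04, 0.83 and 0.69.

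Set side by side, 16 genes fell in both genotypes, which is 80.0% of the 20 that fell in wild-type cells and 76.2% of the 21 that fell in KO cells. Ccnd2, Mki67, Plk3 and Ccne1 rose in both. The changes correlated across the 47 genes with r = 0.928, beside 0.90 across all genes, and genes are not independent replicates. Another 15 genes passed in neither genotype: Mcm3, Cdc6, Orc1, Mcm10, Gins1, Gins2, Rrm2, Ccnb2, Aurka, Cdc20, Birc5, Top2a, Bub1, Bub1b and Cenpf. Of these, 8 belong to the 12 genes of the set whose mean was under 6.65 in every group. The 12 also include Prim1, Ccne2, Kif11 and Cenpe, which were called in at least 1 genotype.

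Other genes of the same pathways are given by their counts, to be read beside the 16.8% of all genes that fell and the 14.0% that rose in wild-type cells, and the 12.7% and 12% in KO cells. Of 36 other replication genes measured, 18 fell and 2 rose in wild-type cells, and 14 fell and 4 rose in KO cells. Dnmt1, which copies DNA methylation behind the fork, fell by 1.55 (adjusted p = 4.79e-09) and 1.21 (1.67e-07), and Rfc2, a clamp loader subunit, by 1.02 and 0.78. Of 63 other mitosis genes, 17 fell and 5 rose in wild-type cells, and 22 fell and 3 rose in KO cells. Cdc25b, the phosphatase that activates Cdk1, fell by 1.28 and 1.37, whereas the checkpoint protein Mad2l1 rose by 1.80 (1.36e-06) and 1.03 (0.000797) and the separase inhibitor Pttg1 by 0.81 and 1.12. Among 23 other G1 regulators and pocket proteins, 7 rose and 6 fell in wild-type cells, and 6 rose and 5 fell in KO cells. Rb1, which restrains E2F, fell by 1.16 and 0.83, the CDK inhibitor Cdkn2c by 1.58 and 1.06, and Cdk4 by 0.73 and 0.58, while Myc rose by 1.33 and 0.75 and Cdc25a by 1.41 and 0.93.

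Some cell type markers moved with LPS as well. In wild-type cells the mean of 9 progenitor markers lay at 6.10 to 6.34 without LPS and at 6.42 to 6.52 with LPS, and 1 of the markers was called higher. The mean of 7 macrophage markers lay at 12.39 to 12.49 without and 11.89 to 12.08 with LPS, and 3 were called lower. For 5 erythroid and megakaryocyte markers the ranges were 6.82 to 7.12 and 7.39 to 7.58, with 1 called higher, and for 5 dendritic cell markers 6.22 to 6.65 and 6.62 to 6.92, with 1 called higher. Among KO arrays the ranges without and with LPS overlapped for the progenitor list (6.15 to 6.37 and 6.34 to 6.57), the erythroid and megakaryocyte list (7.14 to 7.34 and 7.30 to 7.73) and the dendritic cell list (6.38 to 6.55 and 6.54 to 6.66), with 1 marker of each called higher. The macrophage means of KO arrays did not overlap, at 12.27 to 12.40 without and 12.13 to 12.18 with LPS, with 2 markers called higher and 2 lower. Of 6 lymphocyte markers 1 was called higher in wild-type cells, and of 7 neutrophil markers 1 was called higher and 1 lower. In KO cells no lymphocyte marker was called, and 1 neutrophil marker was called lower. The part of these cell types in the changes above was not tested.

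Arrays of a group differed from each other more in these genes than in the median gene. The median SD over 4 arrays was 0.23 for the 47 genes and 0.16 for all genes in unstimulated wild-type cells, and 0.27 and 0.17 in unstimulated KO cells. With LPS the values were 0.15 and 0.13 (wild type) and 0.17 and 0.14 (KO). For the 17 mitotic genes in unstimulated KO cells it was 0.37.

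For mitotic genes that spread followed the array numbers. Their mean deviation from the group mean was -0.221, -0.0595, 0.124 and 0.157 in unstimulated wild-type arrays 1 to 4 and -0.376, -0.136, 0.275 and 0.236 in unstimulated KO arrays. With LPS it was -0.0545, -0.0725, 0.124 and 0.00342 in wild-type arrays and -0.135, -0.189, 0.0973 and 0.227 in KO arrays. Arrays 1 and 2 thus lay below and arrays 3 and 4 above the mean in all 4 groups. Wild-type array 4 with LPS did so only barely, with 8 of the 17 genes above their group mean. In KO array 2 with LPS, 0 of the 17 genes were above their group mean, and in KO unstimulated array 4, 16 were. The 22 replication genes went from -0.234 in array 1 to 0.125 in array 2 of the unstimulated wild-type cells and stayed between -0.0237 and 0.0654 with LPS. Over all genes the mean deviation was -0.0217 to 0.0243. No label says what the numbers stand for.

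**Figure D4:**
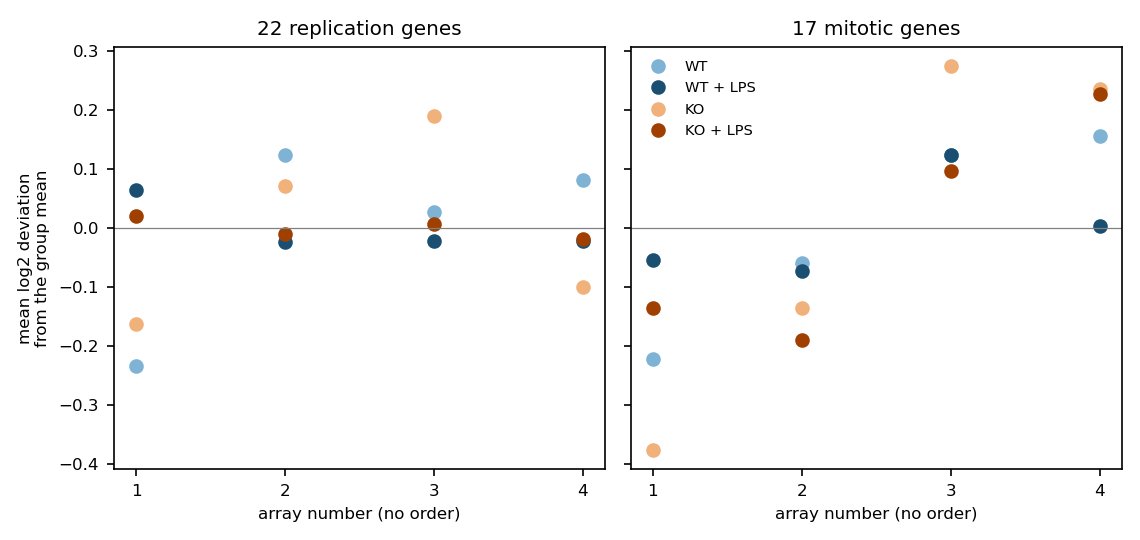
Mean log2 deviation from the group mean of the 22 replication genes (left) and the 17 mitotic genes (right), by array number, with 1 point per array and colors for the 4 groups. Points of the mitotic genes lie below 0 for the numbers 1 and 2 and above 0 for the numbers 3 and 4 in every group, though barely so in wild-type LPS array 4. Points of the replication genes with LPS lie close to 0.

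Without LPS, KO cells read slightly higher than wild-type cells in most of the genes, but none passed in the main fit, which does not use the array numbers. That limma fit called 0 of 47 in either direction, beside 0.140% of all genes called higher and 0.863% called lower. With the array number as a block, 2 were called higher and 0 lower. At an unadjusted p under 0.05, 8 of the 47 were higher (17%, against 3.09% of all genes) and 0 lower (against 4.74%): Mcm5, Mcm6, Pcna, Ccnd1, Ccne2, Mki67, Kif23 and Tpx2. The difference was positive in 41 genes, with a median of 0.15, where the median of all genes was 0.0043. Signs were not all kept with a term for sex, which was largely confounded with genotype. Differences such as those of Mcm3 (-0.31), Prim1 (-0.31) and Plk3 (-0.54) were then negative, and those of Rfc3 (0.04) and Aurkb (0.12) turned positive. Every KO array exceeded every wild-type array in 2 genes, Orc1 and Tpx2, and 0 genes showed the opposite (1.47% and 2.86% of all genes). The mean of the 5 erythroid and megakaryocyte markers did not overlap either, at 6.82 to 7.12 in wild-type and 7.14 to 7.34 in KO arrays, with none of them called, and its part in these differences was not tested.

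These differences were at most 0.53. Kif23 was higher by 0.53 ± 0.18 (adjusted p = 0.289) and Ccne2 by 0.49 ± 0.15 (0.18), followed by Ccnd1 (0.47), Mki67 (0.46), Mcm5 (0.44) and Mcm6 (0.43). Tpx2, with the lowest adjusted p, was higher by 0.41 ± 0.10 (0.0581). Tpx2 read 6.82, 6.79, 6.70 and 6.45 in wild-type arrays and 6.98, 7.09, 7.01 and 7.34 in KO arrays, with no overlap. With the array number as a block, Kif23 (0.0365) and Ccne2 (0.0387) passed and Tpx2 did not (0.0647). With a term for sex, the difference was 0.77 for Kif23, 0.60 for Ccne2, 0.51 for Mki67, 0.25 for Ccnd1, 0.25 for Mcm5 and 0.16 for Mcm6. Tpx2 (0.0236), Ccnb2 and Cenpf passed with that term, with differences of 0.57, 0.69 and 0.48, and with both the block and that term 0 of 47 passed. Without the arrays numbered 4, where sex and genotype are wholly confounded, the count was also 0 in both directions.

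With LPS, 5 of the 47 genes differed between the genotypes. Rrm1 and Cenpe were higher in KO cells, beside 1.80% of all genes, and Ccnd2, Plk3 and Tyms were lower, beside 1.26%. The median difference was 0.11, and -0.010 over all genes. Groups did not overlap in 5 genes with KO higher (Rfc4, Rrm1, Plk1, Bub1 and Cenpe, beside 4.15% of all genes) and in 3 with KO lower (Tyms, Ccnd2 and Plk3, beside 3.59%). Without the arrays numbered 4, where sex and genotype are wholly confounded, 1 gene was called higher and 3 lower. The mean of the 7 macrophage markers did not overlap between these groups either, at 11.89 to 12.08 in wild-type and 12.13 to 12.18 in KO arrays, with 1 marker called higher, and its part in these differences was not tested.

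Ccnd2 and Plk3 stood out in size. Ccnd2 was lower by 1.57 ± 0.30 in KO cells (2.98-fold, adjusted p = 0.00606), its highest KO value of 9.53 lying under the lowest wild-type value of 9.74. Plk3 was lower by 1.17 ± 0.23 (2.25-fold, 0.00694), with KO values up to 9.51 and wild-type values from 9.86. Both were called with each of the 16 arrays left out in turn. Among the arrays with Xist above Kdm5d, which leave 1 KO array per group whose spread is assumed to be that of the other groups, Plk3 was lower by 1.74 (0.0114) and Ccnd2 by 1.53 (0.226). With sex and the block together Plk3 passed (0.000358) and Ccnd2 did not (0.123).

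The nucleotide genes and Cenpe gave smaller differences, whose groups did not overlap but whose calls were each lost without any 1 of several arrays. Tyms was lower by 0.76 ± 0.19 in KO cells (adjusted p = 0.0403), with KO values of 7.42 to 7.76 under wild-type values of 7.87 to 8.61. The call was lost without wild-type LPS array 1 (0.136), 2 (0.159) or 4 (0.0589), KO LPS array 1 (0.0931), 2 (0.117) or 3 (0.117), wild-type unstimulated array 2 (0.0529) or 3 (0.0522) or KO unstimulated array 2 (0.0522), while the difference stayed at -0.90 to -0.65 over the 16 fits that each left out 1 array. Rrm1 was higher by 0.56 ± 0.13 (0.0252), with KO values of 7.96 to 8.16 above wild-type values of 7.32 to 7.65. It was lost without KO LPS array 1 (0.0867), 2 (0.0583) or 4 (0.0587) or wild-type LPS array 2 (0.113) or 3 (0.0502), with differences of 0.49 to 0.60 over those fits. Cenpe was higher by 0.44 ± 0.10 (0.0189), with KO values of 5.46 to 5.81 above wild-type values of 5.05 to 5.34, and was lost without wild-type LPS array 1 (0.0568), 2 (0.0683) or 4 (0.0524) or KO LPS array 4 (0.0596), with differences of 0.37 to 0.51. Cenpe is dim, with a mean under 6.65 in every group. Plk2 was lower by 0.81 (0.0603) and passed with the block (0.0266). With the sex term, which rests on the KO arrays numbered 4, Tyms (0.306) and Rrm1 (0.0671) no longer passed. Tyms also missed with each array centred on its median (0.058).

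**Figure D5:**
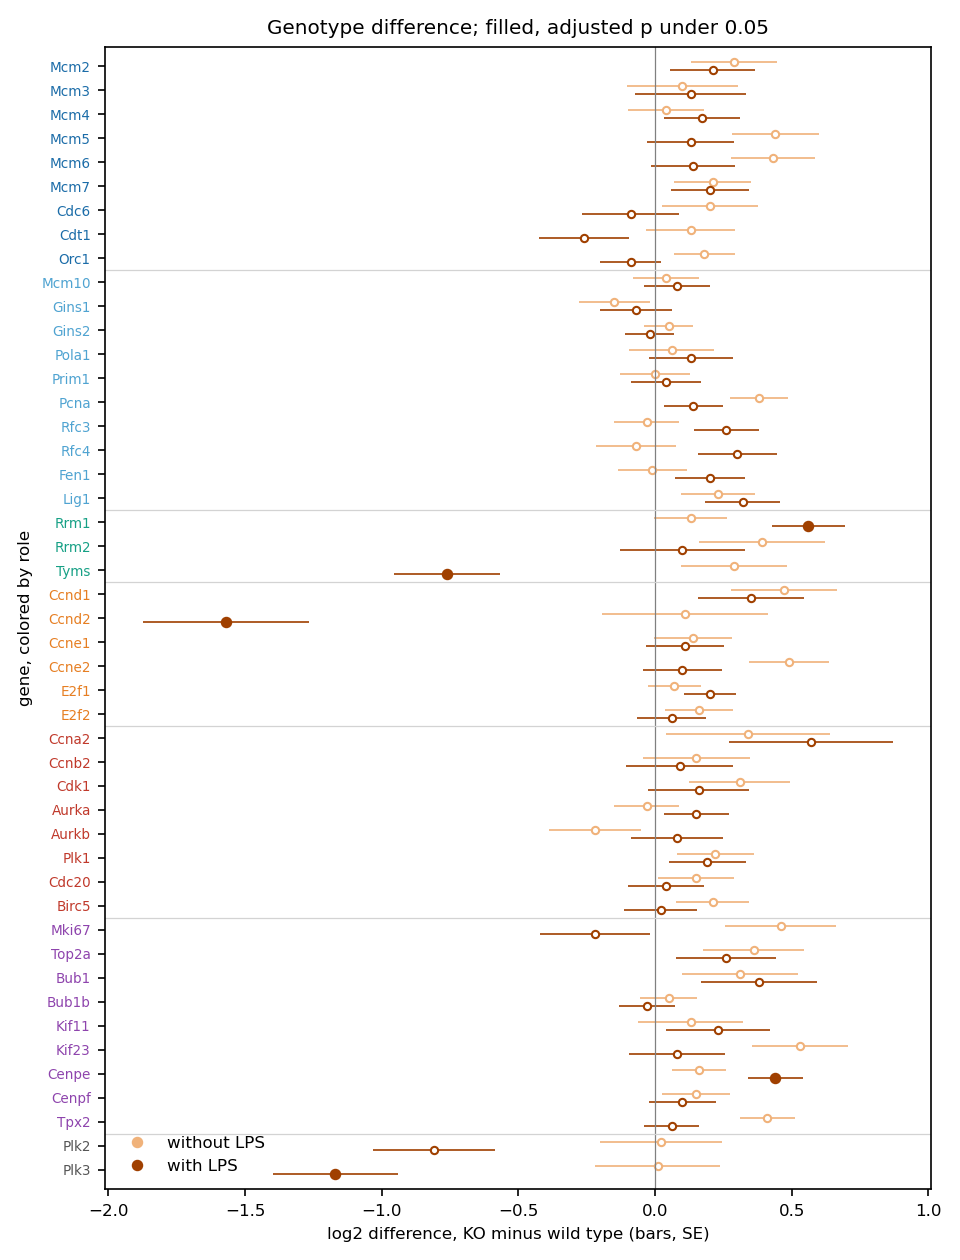
Log2 difference between KO and wild-type cells for each of the 47 genes, without LPS (light) and with LPS (dark), with bars for the SE and filled points for an adjusted p under 0.05. Light points lie mostly right of 0 and are all open, and the filled points are Rrm1 and Cenpe to the right and Ccnd2, Plk3 and Tyms to the left.

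Whether the LPS response itself depended on genotype was tested as the KO change minus the wild-type change. The main limma fit, which does not use the array numbers, called 0 of 47 genes in either direction, beside 0.988% of all genes called higher and 0.301% called lower. At an unadjusted p under 0.05, 1 gene was higher (Rrm1) and 6 lower (Tyms, Ccnd2, Mki67, Tpx2, Plk2 and Plk3), which is 2.13% and 12.8% of the 47, against 6.88% and 3.37% of all genes. Ccnd2 gave -1.68 ± 0.43 (adjusted p = 0.0678), Plk3 -1.18 ± 0.32 (0.0959) and Tyms -1.04 ± 0.28 (0.0775). With the array number as a block, Ccnd2 (0.00916) and Plk3 (0.00179) passed and Tyms did not (0.0509). With the sex term, Tyms (0.0455) and Plk3 (0.0229) passed and Ccnd2 did not (0.0649), and with both, Ccnd2 (0.00623) and Plk3 (0.00072) passed and Tyms did not (0.0536). For the helicase the difference was -0.31 ± 0.22 for Mcm5, -0.29 ± 0.22 for Mcm6 and -0.01 ± 0.20 for Mcm7. Mcm2, Mcm3 and Mcm4 gave -0.08, 0.03 and 0.14, and none of these subunits passed. Rrm1 gave 0.43 ± 0.19 (0.428), so its call between genotypes with LPS is not shown to be a difference in response.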

How the data were processed

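Total RNA from 16 samples was amplified, labelled with biotin and read on 1-colour Affymetrix arrays. The deposited values are log2 levels per probe set, made by the authors with RMA, a method named without a version in the submitters' processing notes. It forces all arrays onto a common distribution, which hides a shift common to the whole transcriptome and shrinks the changes of dim genes. Array medians were 6.76 to 6.86. Of 34760 probe sets, the platform annotation gave 1 gene to 21640, several to 1321 and none that was used to 11799. Genes were named by identifier through RefSeq (GRCm38.p6), which left 87 symbols without an entry.

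All arrays entered 1 limma fit (3.58.1, R 4.3.3) with a mean per group, 12 residual degrees of freedom and Benjamini-Hochberg adjustment over 19937 genes. The fit was tested on simulated data. Alternatives were median centring, a filter on genes with a mean under 6.65 in every group (35 of the 47 passed), the mean of a gene's probe sets, a trended robust variance, the replicate number as a block, only the 8 arrays compared, sex by Xist and Kdm5d, and each array or number left out. The 49 genes and the other lists were chosen with earlier results of these data known. Named genes outside the 49 were up to 4 per list with the smallest p in a contrast, plus Nfat5, Xist and Kdm5d.

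Array numbers are those in the titles. For each number, the KO and the wild-type array deviated together from their group means, with r of 0.160 to 0.442 among unstimulated and 0.186 to 0.518 among LPS arrays, so the numbers were taken to pair the arrays in the genotype comparisons. The main fit does not use this pairing, which enters only through the fits with the block. Between LPS and unstimulated arrays the correlation for number 1 was 0.045 in wild-type and -0.060 in KO cells. For numbers 2 to 4 it was 0.248 to 0.429 in wild-type and 0.138 to 0.558 in KO cells. Because of number 1 the numbers were not taken to pair the arrays there, although the other numbers did deviate together. The fits with the block still used the numbers in every contrast, those of LPS included. No arrays of a group were duplicates: the SD of their difference was 0.172 to 0.381.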

Additional observations from a re-analysis of the deposited data

Results flagged for a closer look

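In 6 of 188 groups of 4 arrays, 1 array lay apart from the other 3 by more than a Dixon test allows, where chance alone gives about 1 group in 20. Mcm2 read 7.28 in KO LPS array 1, below 7.45 to 7.48 in the others. Mcm5 read 7.98 in wild-type LPS array 4, below 8.20 to 8.23. Orc1 read 4.89 in wild-type unstimulated array 1, below 5.12 to 5.14. Rfc3 read 7.62 in KO unstimulated array 2, below 7.77 to 7.79. E2f1 read 9.06 in KO unstimulated array 1, below 9.26 to 9.31. Plk1 read 7.44 in KO LPS array 4, above 7.15 to 7.18.

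Among genes outside the 49, the LPS response differed between genotypes in 3 of 19 p53 target genes measured and in 1 of 9 genes of the CSF1 growth axis. Of all genes, 0.988% were called higher and 0.301% lower. Among 36 other replication genes, 63 other mitosis genes and 23 other G1 regulators and pocket proteins, 0 were called. In all 3 p53 target genes the KO change minus the wild-type change was positive, which does not mean a higher level in KO cells. Sesn1, a regulator of growth signalling, fell by 2.86 in wild-type and by 1.44 in KO cells, a difference of 1.42 ± 0.20 (SE, limma adjusted p = 0.0018). Trp53inp1, a stress protein, changed by -2.67 and -2.03, a difference of 0.64 ± 0.15 (0.0412). Btg2, an inhibitor of proliferation, rose by 0.68 and 1.44, a difference of 0.76 ± 0.17 (0.0353). Its level without LPS was lower in KO cells, at 8.83 against 10.05 in wild-type cells (1.14e-05). With LPS it read 10.26 in KO and 10.72 in wild-type cells (0.048, a call held in 4 of 16 fits with 1 array left out). Over the 16 fits that each left out 1 array, the response call for Sesn1 held in 16, that for Trp53inp1 in 3 (adjusted p up to 0.0986) and that for Btg2 in 5 (up to 0.0846). Among the arrays with Xist above Kdm5d none of the 3 was called (0.309, 0.62 and 0.334). Csf2, the growth factor GM-CSF, rose by 2.05 in wild-type cells and changed by 0.38 in KO cells (0.424), and the difference in response of -1.67 ± 0.40 (0.0471) was called in 3 of those 16 fits (up to 0.0963) and not among the arrays with Xist above Kdm5d (0.669).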

How the results depend on the processing

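The direction of the called changes held under every alternative run, and what moved was the number of genes past the threshold. With the replicate block, 22 genes fell and 6 rose with LPS in wild-type cells and 25 fell and 5 rose in KO cells, 2 were higher in KO cells without LPS, 2 were higher and 4 lower with LPS, and 2 had a lower response in KO cells (Ccnd2 and Plk3). With the 8 arrays compared and the block, 1 gene was higher without LPS, and 4 were higher with LPS. The dim filter gave 1 higher without LPS (Tpx2, 0.0448), 1 higher with LPS (Rrm1, as the filter removed Cenpe) and 1 lower in the response (Ccnd2, 0.0476). A sex term gave 3 higher without LPS and 2 lower in the response (Tyms and Plk3). It rests on the KO arrays numbered 4 alone, so sex and array number cannot be told apart in it. With that term and the block, 0 were higher and 1 lower with LPS, and 2 were lower in the response (Ccnd2 and Plk3). Using only arrays with Xist above Kdm5d, 5 fell and 2 rose with LPS in KO cells, and with LPS 0 were higher and 1 lower between genotypes. Leaving out 1 array, or 1 number in all groups, gave 15 to 22 falls and 4 to 6 rises in wild-type cells, 13 to 25 falls and 3 to 5 rises in KO cells, 0 to 1 higher without LPS, 0 to 2 higher and 1 to 3 lower with LPS, and 0 to 2 lower in the response. Median centring, which ended the KO falls of Pcna (0.0776) and Plk2 (0.056), added that of Mcm5 in wild-type cells (0.0388). The cause was not tested. The limits are 4 arrays per group, an unstated source of replicates, sex that differs with genotype, and 12 dim genes of the 47.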
